A study of Homo sapiens with 24 samples.

Results

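The genes described here encode the cyclin-dependent kinase (CDK) inhibitors CDKN1A, CDKN1B, CDKN1C, CDKN2B, CDKN2C and CDKN2D, together with CDKN3, a phosphatase that acts on CDKs. A probe was taken as a member when its RefSeq accession belonged to one of these 7 genes. This gave 9 probes, the same on both array versions used, out of 50599 probes at 24 h and 58201 at 48 h, where RefSeq named 20992 and 22439 genes. CDKN1B and CDKN3 have 2 probes each and the other genes have 1.

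CDKs drive the cell cycle when bound to a cyclin, and the inhibitors hold them back. The Cip/Kip proteins p21 (CDKN1A), p27 (CDKN1B) and p57 (CDKN1C) bind complexes of cyclin and CDK, above all those with CDK2. The INK4 proteins p15 (CDKN2B), p18 (CDKN2C) and p19 (CDKN2D) bind CDK4 and CDK6 and keep D-type cyclins from joining them. CDKN3 removes an activating phosphate from CDK1 and CDK2, and its transcript is known to be most abundant in dividing cells.

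All samples were LNCaP cells, an established prostate cancer line that depends on androgen, grown in RPMI-1640 with 10% fetal bovine serum and transfected by electroporation. Each sample received a Stealth siRNA against the long non-coding RNA TAPIR-1 (si-A1), one against TAPIR-2 (si-A2), or a negative control duplex of medium GC content, called scramble in the labels. RNA was taken after 24 h or 48 h from 4 biological replicates per siRNA and time point, and each RNA was hybridised to 1 one-colour Agilent array. Since each transcript was targeted with 1 siRNA here, effects of the duplex and of the loss of its target cannot be told apart, and the arrays measure pooled cells, so fewer cells with a transcript and less transcript per cell cannot be told apart either.

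Median processed intensities of the arrays ran from 24.4 to 57.2 at 24 h and, in the arrays used, from 20.4 to 32.2 at 48 h. By the scanner's own rating, 58.5% to 71.7% of the spots of an array were well above background at 24 h, and 60.3% to 66.5% at 48 h. Replicate 2 of si-A2 at 48 h was a dim array and was left out, which leaves 3 arrays in that group and 23 arrays in all. All 8 LNCaP markers, among them KLK3, KLK2, TMPRSS2, FOLH1, HOXB13 and STEAP2, were well above background on every array used. Of 7 markers of other cells, KRT5 and CHGA were at background at both time points. The leukocyte marker PTPRC was well above background on all arrays, read by its brightest probe, which differed between the time points. The endothelial marker PECAM1 was so on 12 of 12 at 24 h and 8 of 11 at 48 h, and SYP on 9 of 12 and 8 of 11. A basal epithelial marker was so on 7 of 12 and 1 of 11, and COL1A1 on 3 of 12 and 0 of 11. Their part in the results was not tested. The TAPIR-2 probe present at both time points had a median log2 intensity of 5.03 in scramble, 4.72 in si-A1 and 4.22 in si-A2 at 24 h, and of 4.57, 4.91 and 4.60 at 48 h. The 48 h groups thus overlapped, a second probe there was well above background on no array, and whether either probe reads the targeted transcript is not known. No probe for TAPIR-1 was matched, so its knockdown is not checked by these arrays.

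The promoters of CDKN1A and CDKN3 are shown because these genes had the largest called increase and decrease of the family. Each window is the 250 bases upstream of a RefSeq start site in GRCh38.p14, written 5′ to 3′ on the strand of the gene, which is the plus strand for both. The CDKN1A window, at chr6:36678464-36678713, lies inside the gene record (chromosome 6, 36676463 to 36687332). The CDKN3 window, at chr14:54396757-54397006, ends directly before the gene record (chromosome 14, 54397007 to 54420218). Capitals mark a cell cycle genes homology region (CHR) word, searched as TTTGAA or TTCGAA on both strands.

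CDKN1A: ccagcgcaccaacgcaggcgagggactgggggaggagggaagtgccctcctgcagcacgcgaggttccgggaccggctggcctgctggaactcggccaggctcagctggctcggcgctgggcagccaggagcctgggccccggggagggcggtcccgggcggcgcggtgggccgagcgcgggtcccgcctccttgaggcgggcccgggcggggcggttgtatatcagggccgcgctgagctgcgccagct
CDKN3: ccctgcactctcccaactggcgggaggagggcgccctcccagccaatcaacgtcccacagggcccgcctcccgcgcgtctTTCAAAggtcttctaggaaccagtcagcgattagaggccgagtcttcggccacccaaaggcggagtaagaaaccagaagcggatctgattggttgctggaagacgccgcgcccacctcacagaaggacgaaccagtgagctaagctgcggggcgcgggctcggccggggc

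The other genes lie on chromosome 12, 12717368 to 12722369 (CDKN1B), chromosome 11, 2883218 to 2885775 (CDKN1C), chromosome 1, 50960745 to 50974634 (CDKN2C), chromosome 19, 10566460 to 10568979 (CDKN2D), and chromosome 9, 22002903 to 22009313 (CDKN2B), in the same build. Of the bases, 76.4% were G or C in the CDKN1A window and 64.4% in the CDKN3 window. The CHR word in CDKN3 reads TTTGAA on the minus strand, from 170 to 165 bases upstream of the start site. Windows were given for 6 of the 7 genes, 8 windows in all because CDKN2C has 3 start sites, and CDKN3 was the one gene with a CHR word. Such a word occurs in 14.3% of 35116 human windows of this length. The E2F words TTTGGCGC, TTTCCCGC, TTTGCCGC and TTTCGCGC, also searched on both strands, occurred in none of the 8 windows and in 2.79% of all windows.

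Levels below are log2 intensities after quantile normalization within a time point, changes are log2 fold changes from limma with their standard error (SE), and adjusted p-values are Benjamini-Hochberg values over all probes tested at that time point. Calls required a change of 0.5 or more in either direction and an adjusted p under 0.01. Levels were normalized separately at 24 h and at 48 h, on different array versions, so a level at one time point is not set against the other. Where a gene has 2 probes it is counted by the brighter one. All 9 member probes passed the background threshold at both time points.

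In the first day the family split. CDKN1A rose after si-A2 and CDKN2C fell after both siRNAs, one of the CDKN3 probes was called lower after si-A1, and CDKN1B, CDKN1C, CDKN2B and CDKN2D were called in no comparison at either time point. After si-A1 at 24 h, 1 of the 7 genes was called lower and none higher, where 1.02% of the 44849 probes tested were called lower and 0.0803% higher. After si-A2 at 24 h, 1 gene was called lower and 1 higher, against 0.838% and 0.0892% of probes. The median log2 fold change of the 7 genes was −0.21 for si-A1 and −0.40 for si-A2, and that of all probes was 0.04 in both comparisons.

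At 48 h the split was wider after si-A1. CDKN1A was called higher and CDKN2C and CDKN3 lower, so 1 gene rose and 2 fell, against 2.14% of 45158 probes called higher and 3.99% called lower. After si-A2 at 48 h, CDKN2C alone was called lower and no gene higher, against 0.376% and 0.0686% of probes. The median change of the 7 genes was −0.20 for si-A1 and −0.41 for si-A2, and that of all probes 0.05 and 0.00. With the replicate number as a block, 1800 probes in place of 2766 were called after si-A1 at 48 h, the 3 members among them, and 0 in place of 201 after si-A2. The si-A1 and si-A2 comparisons of a time point share their 4 scramble arrays. With the dim si-A2 array included no member was called at 48 h: the si-A1 changes were 2.12 for CDKN1A, −1.64 for CDKN2C and −3.11 for CDKN3, with adjusted p-values of 0.293, 1 and 0.105, and the si-A2 change of CDKN2C was −0.32 with an adjusted p of 0.790.

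**Figure D1:**
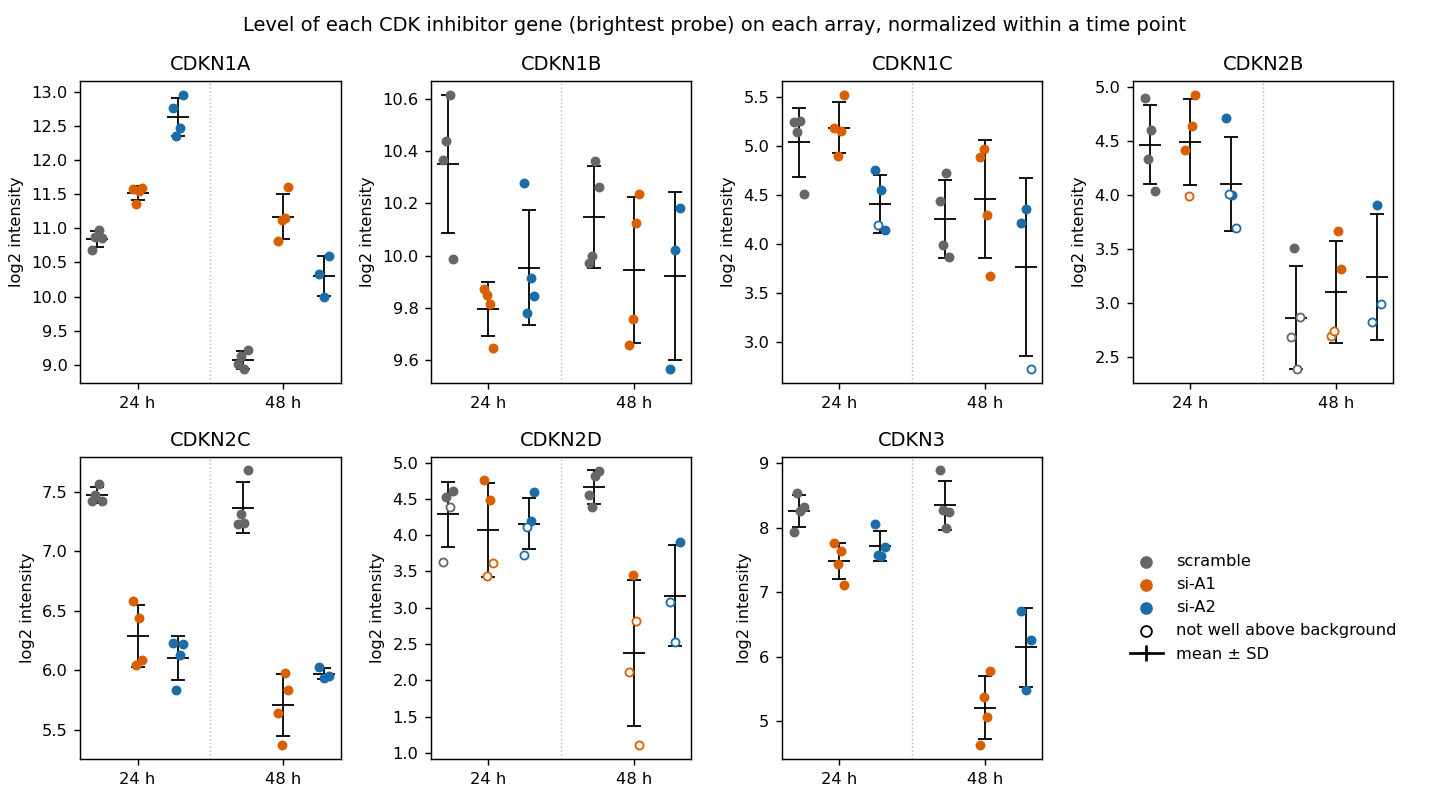
Log2 intensity of the brightest probe of each of the 7 genes on each array (points, open where the spot was not well above background), with the mean and SD of each group (bars), for the 3 siRNAs at both time points; the vertical axes differ between panels and levels are comparable within a time point only. CDKN1A lies above scramble and CDKN2C below it on every knockdown array, and CDKN2B and CDKN2D are dim probes with open points.

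CDKN1A, an inhibitor of CDK2 and other CDKs, was the one member that increased. At 24 h the scramble arrays read 10.68, 10.87, 10.97 and 10.85 in replicates 1 to 4. The si-A1 arrays read 11.58, 11.36, 11.54 and 11.59, and the si-A2 arrays 12.76, 12.35, 12.47 and 12.96. The 3 groups did not overlap, and the order was scramble, si-A1, si-A2. The increase after si-A2 was 1.79 (SE 0.15, 95% interval 1.47 to 2.12), or 3.47-fold, with an adjusted p of 0.000103. The si-A1 difference was 0.68 (SE 0.15, 0.35 to 1.00), or 1.60-fold. It had an adjusted p of 0.0426 and was not called.

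The direct comparison of the siRNAs at 24 h put CDKN1A higher after si-A2 by 1.12 (SE 0.15), or 2.17-fold, with an adjusted p of 0.00581. It was the one member called there, against 0.252% of probes called higher and 0.114% called lower. This call was lost when any array other than scramble replicate 3 was left out, with adjusted p-values up to 0.0341, although the difference stayed between 1.03 and 1.20. Within the 2 slides the difference was 1.09 and 1.15.

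At 48 h the order of the knockdown groups was the other way round. CDKN1A read 9.01, 9.13, 8.93 and 9.21 in scramble, 10.81, 11.12, 11.15 and 11.61 in si-A1, and 10.33, 9.99 and 10.59 in si-A2 replicates 1, 3 and 4. Again no group overlapped another. The increase after si-A1 was 2.10 (SE 0.18, 95% interval 1.70 to 2.51), or 4.29-fold, with an adjusted p of 0.000148. The si-A2 difference was 1.21 (SE 0.20, 0.76 to 1.65), or 2.31-fold, with an adjusted p of 0.0179, above the threshold. With 1 probe per gene tested its adjusted p was 0.00914, and after normexp background correction 0.000626.

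The si-A2 minus si-A1 difference at 48 h was −0.89 (SE 0.20), with an adjusted p of 0.0343, and was not called. After normexp correction it was called, at −0.86 and an adjusted p of 0.00244. No member was called between the siRNAs at 48 h, with or without the replicate block (257 and 656 probes called in all), where 0.985% of probes were called higher in si-A2 and 0.467% lower, and 2 of the 7 genes had an unadjusted limma p under 0.05, as had 8615 of 45158 probes.

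Whether an effect changed from 24 h to 48 h was tested over 35792 probes shared by the 2 array versions. Each time point had its own version, so time and version cannot be told apart. The si-A1 effect on CDKN1A was 1.32 larger at 48 h (SE 0.22, 95% interval 0.85 to 1.79), with an adjusted p of 0.00922, where 0.0587% of probes were called higher and 0.101% lower. With the replicate number as a block the adjusted p was 0.0112, and leaving out 1 array at a time gave values between 0.00463 and 0.0284, above the threshold for 18 of 23 arrays; 37 probes in place of 57 were called with the block. The si-A2 effect on CDKN1A differed by −0.78 (SE 0.23), with an adjusted p of 0.353. No member was called for the si-A2 effect, where 0.0307% of probes were called higher and 0.00279% lower, and 2 of the 7 genes had an unadjusted limma p under 0.05, as had 2708 of 35792 probes.

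**Figure D2:**
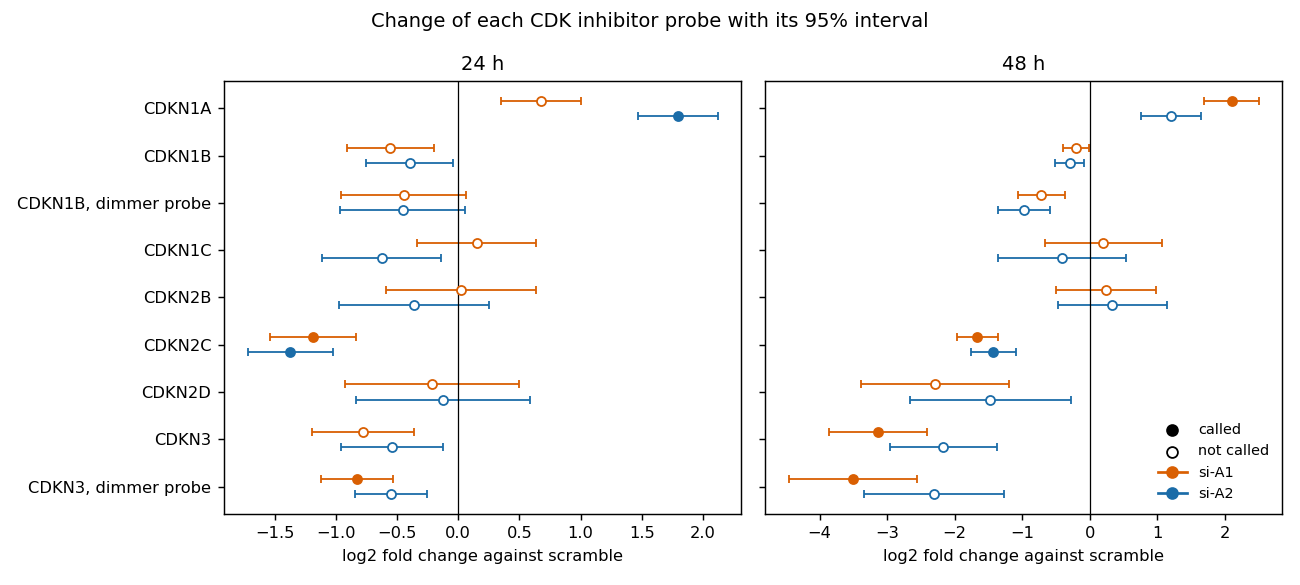
Log2 fold change against scramble of each of the 9 member probes for either siRNA at both time points, with 95% intervals from the fit; filled points were called, open points were not, and the horizontal scales of the 2 panels differ. CDKN1A lies right of 0 in both panels, CDKN2C and both CDKN3 probes lie left of it, and the intervals of CDKN2B include 0 throughout.

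The other Cip/Kip genes were not called. CDKN1B, whose protein p27 restrains CDK2 in resting cells, read 9.99 to 10.62 on its brighter probe in scramble at 24 h, 9.65 to 9.87 in si-A1 and 9.78 to 10.28 in si-A2. All 4 si-A1 arrays lay below the scramble arrays (−0.56, SE 0.16, adjusted p 0.135), and the si-A2 arrays overlapped them (−0.40, SE 0.16, adjusted p 0.349). At 48 h its changes were −0.20 (SE 0.09) after si-A1 and −0.30 (SE 0.09) after si-A2, with adjusted p-values of 0.151 and 0.141.

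The dimmer CDKN1B probe did not give the same picture at 48 h. It read 5.96, 5.92, 6.34 and 5.88 in scramble, 5.61, 5.51, 5.06 and 5.07 in si-A1, and 5.23, 4.94 and 4.89 in si-A2. No knockdown array reached the lowest scramble array. The changes were −0.72 (SE 0.15, adjusted p 0.0153) after si-A1 and −0.97 (SE 0.17, adjusted p 0.0217) after si-A2. Neither was called, and both are more negative than those of the brighter probe. This probe is printed 10 times on the 24 h array version, where the SD between its spots within an array had a median of 0.11, against a residual SD between arrays of 0.34. It is printed once on the 48 h version.

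CDKN1C, an imprinted gene for the inhibitor p57, was a dim probe with levels of 4.52 to 5.25 in scramble, 4.90 to 5.52 in si-A1 and 4.14 to 4.76 in si-A2 at 24 h. The si-A2 arrays lay below all si-A1 arrays, with a difference of −0.77 (SE 0.22, adjusted p 0.144), and overlapped scramble, with a difference of −0.62 (SE 0.22, adjusted p 0.260). At 48 h the changes were 0.20 (SE 0.38) after si-A1 and −0.41 (SE 0.42) after si-A2, and the groups overlapped. After normexp correction the si-A2 changes were −0.18 at 24 h and −0.08 at 48 h.

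CDKN2C, the INK4 inhibitor p18 of CDK4 and CDK6, fell in all 4 comparisons with scramble. At 24 h the scramble arrays read 7.42, 7.48, 7.57 and 7.43. The si-A1 arrays read 6.58, 6.04, 6.44 and 6.09, and the si-A2 arrays 6.23, 5.83, 6.13 and 6.22. Every knockdown array was below every scramble array, and the 2 knockdown groups overlapped. The change was −1.19 after si-A1 (SE 0.16, 95% interval −1.54 to −0.84, adjusted p 0.00240) and −1.37 after si-A2 (SE 0.16, −1.72 to −1.02, adjusted p 0.000955). These are 0.439 and 0.387 of the scramble level.

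At 48 h CDKN2C read 7.23, 7.32, 7.24 and 7.68 in scramble, 5.64, 5.37, 5.97 and 5.83 in si-A1, and 6.03, 5.94 and 5.95 in si-A2. The separation from scramble was complete again. The change was −1.66 after si-A1 (SE 0.13, 95% interval −1.97 to −1.36, adjusted p 0.000116) and −1.43 after si-A2 (SE 0.15, −1.76 to −1.10, adjusted p 0.00390), or 0.316 and 0.372 of the scramble level.

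The 2 siRNAs did not differ detectably on CDKN2C. The si-A2 minus si-A1 difference was −0.18 at 24 h (95% interval −0.53 to 0.17) and 0.24 at 48 h (−0.10 to 0.57). The effect of si-A1 on CDKN2C changed by −0.49 from 24 h to 48 h (SE 0.21, adjusted p 0.292) and that of si-A2 by −0.07 (SE 0.21, adjusted p 0.963).

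The call after si-A2 at 48 h was lost with the replicate number as a block, at an adjusted p of 0.0167, and without any 1 of the 4 scramble arrays, the 3 si-A2 arrays or si-A1 replicate 3, at adjusted p-values up to 0.0192 and changes between −1.57 and −1.33. That after si-A1 at 24 h was lost without scramble replicate 2 (0.0119), si-A1 replicate 2 (0.0130) or si-A1 replicate 4 (0.0102). It was also lost with the interquartile range filter of the study's methods (adjusted p 0.0151). With only the 2 groups compared both calls were lost, at adjusted p-values of 0.0226 (si-A1, 24 h) and 0.0637 (si-A2, 48 h). After normexp background correction, which adds an offset of 50 to each intensity, the changes were closer to 0, at −0.73 and −0.80 at 24 h and −1.03 and −0.87 at 48 h for si-A1 and si-A2, and all 4 were called.

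CDKN2D, the INK4 inhibitor p19, was near background. At 24 h it was well above background on 2 of 4 arrays in each group, and its changes were −0.21 (SE 0.32) after si-A1 and −0.13 (SE 0.32) after si-A2. At 48 h it read 4.56, 4.39, 4.82 and 4.88 in scramble and was well above background on all 4 arrays. The si-A1 arrays read 2.11, 3.45, 2.82 and 1.1 and the si-A2 arrays 3.08, 2.52 and 3.90, with 1 array well above background in each group. All knockdown arrays thus lay below all scramble arrays at 48 h. The fitted change was −2.29 after si-A1 (SE 0.48, adjusted p 0.0137) and −1.47 after si-A2 (SE 0.53, adjusted p 0.194), and neither was called. With 1 probe per gene tested the si-A1 change had an adjusted p of 0.00852. After normexp correction the changes were −0.42 (adjusted p 0.000690) and −0.33 (adjusted p 0.0151), too small or too uncertain for a call. The change in the si-A1 effect from 24 h to 48 h was −1.80 (SE 0.61, adjusted p 0.190), and −0.39 after normexp correction.

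CDKN2B, the TGF-beta-induced inhibitor p15, gave no detectable change. It read 4.04 to 4.90 in scramble, 3.99 to 4.93 in si-A1 and 3.70 to 4.72 in si-A2 at 24 h, and 2.39 to 3.51, 2.69 to 3.67 and 2.83 to 3.91 at 48 h. At 48 h it was well above background on 4 of 11 arrays, 1 in scramble, 2 in si-A1 and 1 in si-A2. The 95% interval of its change was −0.59 to 0.64 after si-A1 and −0.98 to 0.25 after si-A2 at 24 h, and −0.50 to 0.98 and −0.48 to 1.14 at 48 h.

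CDKN3 had the largest fitted change of the family, after si-A1 at 48 h, although after normexp correction CDKN1A (1.98) and CDKN3 (−1.95) were close in size. On its brighter probe the scramble arrays then read 8.89, 8.28, 7.99 and 8.24, the si-A1 arrays 4.62, 5.38, 5.06 and 5.78, and the si-A2 arrays 6.70, 5.48 and 6.25. The dimmer probe read 7.97, 7.42, 7.43 and 7.65 in scramble, 3.25, 4.70, 3.71 and 4.77 in si-A1, and 5.88, 4.36 and 5.58 in si-A2. On both probes every knockdown array was below every scramble array. The 2 knockdown groups overlapped, but si-A2 was above si-A1 in all 3 same-numbered pairs. The si-A2 minus si-A1 difference was 0.97 (SE 0.35, adjusted p 0.163) on the brighter probe and 1.20 (SE 0.46, adjusted p 0.188) on the dimmer, not called.

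The si-A1 change at 48 h was −3.14 on the brighter probe (SE 0.32, 95% interval −3.87 to −2.41, adjusted p 0.000376) and −3.51 on the dimmer (SE 0.42, −4.46 to −2.56, adjusted p 0.000906), or 0.113 and 0.0879 of the scramble level. After si-A2 the changes were −2.17 (SE 0.35, adjusted p 0.0178) and −2.31 (SE 0.46, adjusted p 0.0343), not called. With 1 probe per gene tested the brighter probe had an adjusted p of 0.00931 after si-A2. After normexp correction the si-A1 changes shrank to −1.95 and −1.71 and were called.

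At 24 h the CDKN3 probes lay closer to scramble. The brighter probe read 7.94, 8.53, 8.27 and 8.33 in scramble, 7.76, 7.44, 7.64 and 7.11 in si-A1, and 8.06, 7.57, 7.56 and 7.70 in si-A2. The changes were −0.78 (SE 0.19, adjusted p 0.0666) and −0.54 (SE 0.19, adjusted p 0.251), not called. The dimmer probe was called after si-A1 at −0.83 (SE 0.13, adjusted p 0.00756) and not after si-A2 at −0.55 (SE 0.13, adjusted p 0.0777). Its si-A1 call was lost without any array other than si-A2 replicate 1, with adjusted p-values up to 0.0376.

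The si-A1 effect on CDKN3 was more negative at 48 h than at 24 h, by a difference of −2.38 on the brighter probe (SE 0.37, 95% interval −3.16 to −1.60), and −2.61 (SE 0.41, −3.46 to −1.75) on the dimmer, both with an adjusted p of 0.00512. The adjusted p of the brighter probe was 0.0130 with the replicate number as a block, and above the threshold without any 1 of 11 of the 23 arrays, at up to 0.0193. For si-A2 the differences were −1.63 (SE 0.39, adjusted p 0.178) and −1.75 (SE 0.43, adjusted p 0.197), not called. Thus CDKN1A and CDKN3, a CDK inhibitor and a phosphatase of dividing cells, both had a larger si-A1 effect at 48 h, in opposite directions.

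**Figure D3:**
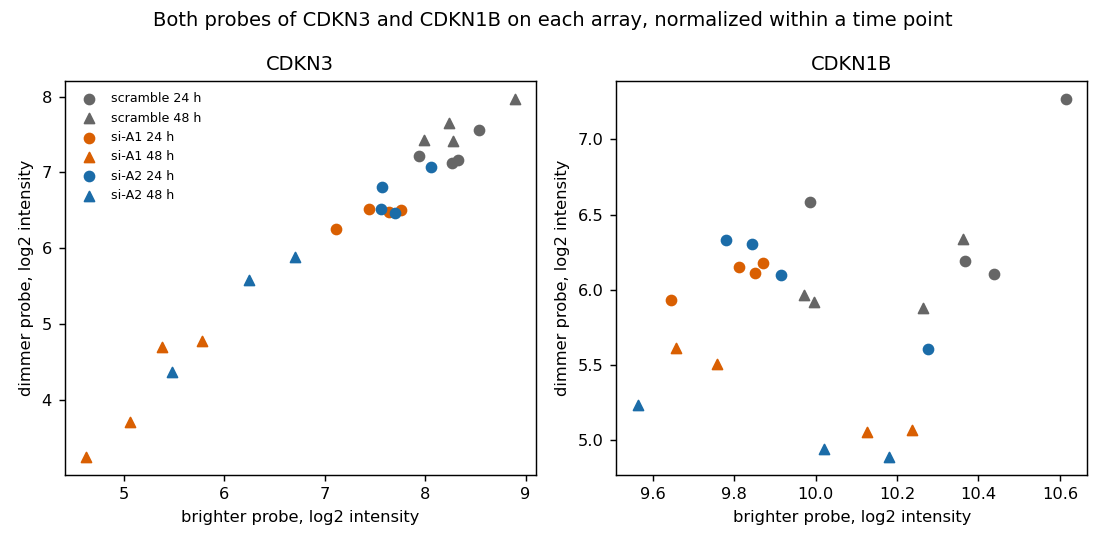
Log2 intensity of the dimmer against the brighter probe of CDKN3 (left) and CDKN1B (right), 1 point per array, with circles for 24 h and triangles for 48 h and colours for the siRNA; axes are normalized within a time point. The CDKN3 probes both place all 48 h knockdown arrays below scramble, whereas for CDKN1B the 48 h knockdown arrays lie below scramble on the dimmer probe and overlap it on the brighter.

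The cyclins and kinases that these proteins bind were described from a list of 13 genes, of which CCNA1 had no probe, and 12 at 24 h and 10 at 48 h passed the background threshold. After si-A1, 6 were called lower at 24 h and 6 at 48 h, none was called higher, and the median change was −0.81 and −1.86. Of all probes, 1.02% and 3.99% were called lower there, and their median change was 0.04 and 0.05. After si-A2, 0.838% of all probes were called lower at 24 h and 0.376% at 48 h, with medians of 0.04 and 0.00. Shares called higher were 0.0803% and 2.14% after si-A1, and 0.0892% and 0.0686% after si-A2. These shares hold for the lists below as well. CDK1, the mitotic kinase, fell by 2.41 on the log2 scale (SE 0.33) after si-A1 at 24 h, where its dimmer probe was not called. At 48 h CDK1 fell by 3.49 (SE 0.28). CCNB2, its mitotic cyclin partner, fell by 1.76 (SE 0.26) and then fell by 3.54 (SE 0.25), CCND1, a D-type cyclin, fell by 1.84 (SE 0.15) and then fell by 1.57 (SE 0.13), and CDK2 fell by 1.59 (SE 0.24) and then fell by 2.15 (SE 0.14). After si-A2, 4 fell at 24 h (CDK1, CCNE2, CCNA2 and CCND1), with a median of −0.68, and at 48 h CCNA2 alone was called (−1.62, SE 0.21), with a list median of −0.74 and 7 of 10 genes at an unadjusted limma p under 0.05, which 8011 of 45158 probes reached in that comparison. That count stayed at 1 in 1 of 24 alternatives, was 0 with the replicate number as a block or without the slide term, and was 5 with normexp correction. CDK4, a kinase that p18 and p19 bind, was not called. It changed by −0.09 and 0.10 at 24 h and by −0.18 and −0.01 at 48 h after si-A1 and si-A2. CDK6, the other such kinase, had fitted changes of 1.71 (SE 0.35, adjusted p 0.0281) and 0.89 (SE 0.35, adjusted p 0.326) at 24 h, not called. Its probe was well above background there on 2 of 4 si-A1 arrays and on no scramble or si-A2 array. At 48 h CDK6 did not pass the background threshold. The second CCNB1 probe was called lower after si-A1 at 48 h, against a value of 0.83 for the brighter probe. The dimmer CDK1 probe was also not called after si-A2 at 24 h, nor was the dimmer CCNE2 probe after si-A1 at 24 h.

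Of 8 phosphatases and kinases that switch CDKs on or off, 7 passed the threshold at 24 h and 8 at 48 h. CDC25C, the phosphatase that activates CDK1, was the one called at 24 h, with changes of −0.90 (SE 0.14) after si-A1 and −1.35 (SE 0.14) after si-A2. The si-A1 count of this list stayed at 1 in 9 of 24 alternatives and was 0 with 75th percentile scaling or the replicate block, and the si-A2 count was 4 with normexp correction. After si-A1 at 48 h the fitted fall of CDC25C was 2.43 (SE 0.35), with 2 of 4 si-A1 arrays well above background. CDC25B fell by 1.67 (SE 0.16) there, and PKMYT1, an inhibitory kinase, fell by 0.90 (SE 0.11). No gene of the list was called after si-A2 at 48 h. There 7 of 8 had an unadjusted limma p under 0.05, as had 8011 of 45158 probes.

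Among 8 pocket proteins and E2F factors, the transcription machinery that CDK activity releases, E2F1 fell by 2.46 (SE 0.18) after si-A1 and fell by 3.23 (SE 0.18) after si-A2 at 24 h, and fell by 2.69 (SE 0.24) after si-A1 at 48 h. E2F2 was called lower in the same 3 comparisons. It was well above background on 4 of 4 scramble arrays and on no si-A2 array at 24 h, so it was at least 4.40-fold lower there (adjusted p 8.774e-05), and on no si-A1 array at 48 h, where it was at least 6.16-fold lower (adjusted p 0.0001521). E2F5 rose after si-A1, by 1.16 (SE 0.16) at 24 h and 0.58 (SE 0.11) at 48 h. RBL1 fell by 0.94 (SE 0.14) after si-A2 at 24 h, and after si-A1 its second probe alone was called lower at both time points. RB1 was called lower after si-A1 at 48 h, but its probe was well above background on 1 of the 11 arrays, so no size is given. After si-A2 at 48 h none was called, and 3 of 8 had an unadjusted limma p under 0.05, as had 8011 of 45158 probes.

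Of 14 genes that control the transcription or breakdown of the inhibitors, 13 passed the threshold. The genes called by their brightest probe were SKP2 and CKS1B, the parts of a ubiquitin ligase that recognise p27, and DTL, which directs p21 to breakdown. After si-A1, SKP2 fell by 2.11 (SE 0.23) at 24 h and fell by 2.10 (SE 0.16) at 48 h, and CKS1B fell by 1.16 (SE 0.13) and fell by 2.54 (SE 0.19). After si-A2 at 24 h CKS1B fell by 1.00 (SE 0.13), and SKP2 changed by −0.56 (SE 0.23, adjusted p 0.3619) and was not called. Of 2 SMAD4 probes the dimmer was called lower after si-A1 at 48 h. DTL was well above background on all scramble arrays and on 1 of 4 si-A1 and none of 4 si-A2 arrays at 24 h, at least 7.37-fold lower after si-A2 (adjusted p 0.0001819), and it fell by 3.37 (SE 0.16) after si-A1 at 48 h. After si-A2 at 48 h no gene of this list was called by its brightest probe. The second CKS1B probe was called lower there, but not with the replicate block. An unadjusted limma p under 0.05 was reached by 5 of the 13 genes and by 8011 of 45158 probes.

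**Figure D4:**
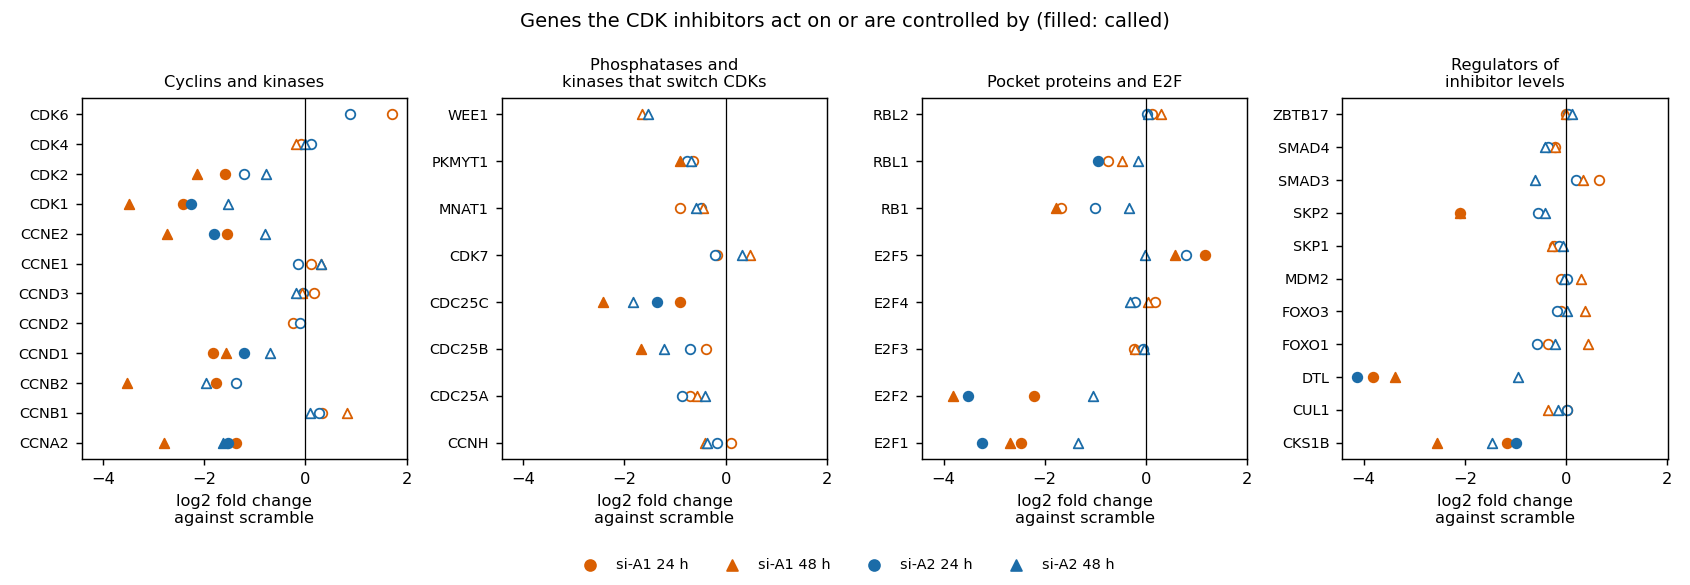
Log2 fold change against scramble of listed genes that the CDK inhibitors act on or are controlled by, 1 panel per list, with circles for 24 h, triangles for 48 h, colours for the siRNA and filled points for called changes. Most filled points lie left of 0, and E2F5 after si-A1 is the one gene with filled points to its right; fitted values of E2F2, DTL and RB1 are drawn although some of their groups had no array well above background.

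For CDKN1A, CDKN2C and CDKN3, the genes closest in pattern were sought among 15772 others by the root mean square difference over 23 arrays, after each probe's mean within a time point was subtracted. For CDKN1A these were SULF2 (0.387), SPATA18 (0.427) and ZMAT3 (0.447), against a median of 0.901 over all genes. The closest genes were picked over these same arrays, so values below the median and alike changes follow from the choice. A gene without any change would score the member's own root mean square, 0.842 for CDKN1A, 0.702 for CDKN2C and 1.03 for CDKN3. SULF2 changed by 1.34, SPATA18 by 1.35 and ZMAT3 by 1.37 after si-A2 at 24 h, and by 1.19, 1.78 and 2.36 after si-A1 at 48 h. After si-A1 at 24 h they changed by 0.35, 0.10 and 0.56, and CDKN1A by 0.68. After si-A2 at 48 h they changed by 0.87, 1.93 and 2.12, and CDKN1A by 1.21. For CDKN2C they were MDC1 (0.232), the replicative helicase subunit MCM7 (0.245) and the mitotic kinesin KIF2C (0.248), against a median of 0.770. For CDKN3 they were NEK2 (0.287), KIF20A (0.300) and AURKA (0.311), genes of centrosomes and the mitotic spindle, against a median of 1.08. NEK2 changed by −3.11 and AURKA by −2.84 after si-A1 at 48 h, and by −1.06 and −1.05 at 24 h. After si-A2 at 24 h NEK2 changed by −1.20, KIF20A by −1.20 and AURKA by −1.13, more than CDKN3 did (−0.54). After si-A2 at 48 h they changed by −2.01, −1.87 and −1.71, and CDKN3 by −2.17.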

How the data were processed

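Expression was measured in LNCaP cells on 24 one-colour Agilent arrays, 1 sample each, of one array version at 24 h and another at 48 h. The deposited scanner files hold processed intensity, which per the file headers is background-subtracted by Feature Extraction, and the deposited value table holds log2 values that the authors made by quantile normalization (submitters' notes name R 3.4.3 and limma 3.34.8). Here the processed intensities were taken to log2 and quantile-normalized over the arrays of a time point. This came within 0.0528 (24 h) and 0.219 (48 h) of the deposited log2 values, where each array has a median of 5.07 and 4.69. Quantile normalization makes the arrays of a time point share 1 distribution, so a change common to all probes is not seen.

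Control spots were removed, spots with the scanner's flags for non-uniformity or outlying pixels and replicates were dropped, and repeated spots of a probe were averaged. Probes above the mean plus 3 SD of 308 negative control spots on at least 3 arrays were fitted with limma 3.58.1 in R 4.3.3, with the 3 siRNA groups and the slide as terms. The interquartile range filter of the study's methods was used as an alternative only. Well above background refers to the scanner's rating. The number of arrays limits the precision. The 48 h si-A2 replicate 2 was left out, as in the study's methods. Changes in an effect between time points were fitted on all 23 arrays after joint quantile normalization.

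Each time point has 2 slides, replicates 1 and 2 on one and 3 and 4 on the other, with all siRNAs on each. Replicate numbers were checked for pairing. At 48 h the deviations of same-numbered arrays correlated at 0.18 to 0.35 in all 10 pairs, and those of other numbers on the same slide at 0.098 to 0.29, so number and slide cannot be fully told apart. Of the 11 arrays at 48 h, 9 correlated best with their own number. Arrays on different slides correlated at −0.33 to −0.12. By the rule used (all pairs over 0.1) the numbers were taken to pair the arrays there, on this evidence and not from the labels. Most pairs of other numbers on the same slide passed 0.1 as well, so the rule cannot separate number from slide. The main values and calls at 48 h nevertheless come from the fit with the slide, which does not use this pairing. The block on replicate number is therefore given beside results at 48 h that it changed.

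The 7 members, the gene lists and the marker lists were chosen with earlier results of these data known. Members were all named. List examples were the called genes with the largest changes, up to 4 a list. For the cyclins and kinases after si-A1 they were those of 24 h. At 48 h CCNA2 (−2.79) and CCNE2 (−2.74) were also called there and fell more than CDK2 and CCND1. CDK4, CDK6, CCNB1 and second probes were named after their values were seen. Some genes of the lists are counted but not reported here by name or drawn. Gene names came from RefSeq through the accession of a probe, which named 29033 of 50599 probes at 24 h and 31104 of 58201 at 48 h. Promoter windows came from RefSeq (GRCh38.p14). The code was tested on simulated data. Alternatives covered normalization, background correction, slide, block, groups in the fit, filters, threshold, probes per gene, the deposited values, and each array left out.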

Additional observations from a re-analysis of the deposited data

Results flagged for a closer look

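The si-A1 effect was larger at 48 h than at 24 h for CDKN3, with differences of −2.38 and −2.61 on its 2 probes, and for CDKN1A, with a difference of 1.32. Each difference was called by the test of the difference itself, but the brighter CDKN3 probe and CDKN1A were not called with the replicate block (adjusted p 0.0130 and 0.0112). Leaving out 1 array lost the call for 11 of 23 arrays for CDKN3 and 18 of 23 for CDKN1A.

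CDKN1C in scramble replicate 4 at 24 h read 4.52, while the other 3 scramble arrays read 5.14 to 5.25. It was the one array that stood apart in 45 groups of 4 arrays, and chance alone sets 1 apart in about 1 in 20 groups.

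On the 48 h si-A2 array that was left out, normalized together with the other 11 arrays, CDKN1B read 12.9 on its brighter probe against 9.89 to 10.3 in scramble. CDKN2B read 7.22 against 2.39 to 3.48, and CDKN2C read 10.1 against 7.09 to 7.54. These 3 probes were above all scramble arrays on a dim array. The other 6 member probes were below all scramble arrays, among them CDKN1A (7.51 against 8.83 to 9.12) and the dimmer CDKN1B probe (2.86 against 5.76 to 6.21), so the 2 CDKN1B probes moved in opposite directions. The cause was not tested.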

How the results depend on the processing

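Across the alternatives other than leaving out arrays, 118 of 141 values of called member changes kept their call, 23 kept their direction but lost it, and none reversed. These values include the looser threshold of an adjusted p below 0.05, under which a called change cannot lose its call. With 1 array left out, 111 of 184 kept their call, 73 lost it and none reversed. Counts of member genes called were as follows. After si-A1 at 24 h, 1 gene became 2 with normexp correction and at an adjusted p below 0.05, and 0 with only the 2 groups compared or with the interquartile range filter, and without 1 array it was 0 to 1. Between the siRNAs at 24 h, 1 became 0 with the replicate block, only the 2 groups or the interquartile range filter, and was 0 to 1 without 1 array. After si-A1 at 48 h, 3 became 0 with all 12 arrays and 4, with CDKN2D added, with the slide as a random block, the interquartile range filter, the well-above-background filter, 1 probe per gene or an adjusted p below 0.05, and was 3 to 4 without 1 array. After si-A2 at 48 h, 1 became 2 with 75th percentile scaling or the slide as a random block, 3 with normexp correction, the well-above-background filter, 1 probe per gene or an adjusted p below 0.05, and 0 with the replicate block, only the 2 groups or all 12 arrays, and was 0 to 1 without 1 array. Between the siRNAs at 48 h, 0 became 1 with normexp correction and at an adjusted p below 0.05. For the change in the si-A1 effect, 2 became 1 without the slide term, 0 with the replicate block and 0 with all 24 arrays, and was 0 to 2 without 1 array. The counts for si-A2 at 24 h (2) and for the change in the si-A2 effect (0) were the same in every alternative.

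Over all probes the calls ranged from 175 to 1012 (main 494) for si-A1 and from 191 to 807 (416) for si-A2 at 24 h, from 29 to 615 (164) between them, and at 48 h from 27 to 5261 (2766), from 0 to 1174 (201) and from 0 to 2075 (656). For the change in effect they ranged from 0 to 187 (57) for si-A1 and from 0 to 27 (12) for si-A2. The lowest counts came with only the 2 groups, with all arrays or with the replicate block.

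Of the list counts, that of lower cyclins and kinases after si-A2 at 48 h (1) ranged from 0 to 5, and those of lower phosphatases and kinases at 24 h from 0 to 3 after si-A1 (1) and from 1 to 4 after si-A2 (1).

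Uncalled changes that reversed were those of CDKN1B (0.52) after si-A2 at 48 h with all 12 arrays, and of the change in the si-A2 effect on CDKN2C (1.04) with all 24. Without 1 array, uncalled changes crossed 0 for CDKN2B (−0.16 to 0.23), CDKN1C (−0.036 to 0.27) and CDKN2D (−0.52 to 0.012) after si-A1 at 24 h, CDKN2D (−0.32 to 0.015) after si-A2 at 24 h, CDKN1C (−0.79 to 0.028) after si-A2 at 48 h, and the change in the si-A2 effect on CDKN2C (−0.22 to 0.026). At 24 h same-numbered arrays correlated at −0.15 to 0.16 in 12 pairs and 1 of 12 arrays correlated best with its own number. The replicate block there lost the calls of CDKN1A between the siRNAs (adjusted p 0.0218) and of the dimmer CDKN3 probe after si-A1 (0.0286). The dim probes of CDKN2B, CDKN2D and CDKN1C lie close to background, which limits what they can show.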
